A study of Mus musculus with 25 samples.

Results

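The effect of a high fat diet was examined in 1 sorted population of mouse adipose tissue macrophages, called pop2 (beta) in the labels and gated as Tim4+ and MHCII high. Its members are the 4 pop2 libraries, of 25 libraries in the series, chosen by their titles: libraries 7 and 8 from mice on the control diet (CD, 10% fat, titled CD-CD) and libraries 2 and 3 from mice on the high fat diet (HFD, 45% fat). All mice were C57BL6, and each library was made from 200 cells sorted from white adipose tissue (eWAT in the titles). Collagenase II was used to digest the tissue, with flavopiridol added to block transcription, and amplified cDNA was sequenced. The other libraries were used to estimate the spread and to compare the diet difference with that in the Tim4+ MHCII low cells of pop1 and the Tim4- cells of pop3 (CD11c-, MHCII high) and pop4 (CD11c+, MHCII+), each with 2 libraries per diet. Blood monocytes gated on CD115 and Ly6C (6 CD and 3 HFD libraries) entered the estimate of the spread only. The labels do not give the number of animals behind a library or the length of the diets, so p-values measure the spread between these libraries, which may be technical. Since every adipose control library carries the title CD-CD, diet and title series cannot be told apart.

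Tim4, encoded by Timd4, is a receptor for phosphatidylserine, the lipid that dying cells expose, and marks tissue-resident macrophages that engulf them. MHC class II molecules carry peptides of engulfed material to the cell surface for CD4+ T cells, with costimulatory molecules such as CD86. Resident macrophages of fat lie along vessels and between adipocytes, take up debris, lipid and iron, break them down in lysosomes, and secrete growth factors and chemokines.

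The libraries carried the gate's markers in both diets. Timd4 was read at 495 and 562 CPM (counts per library total, scaled with TMM factors) in CD libraries 7 and 8 and at 88.6 and 102 CPM in HFD libraries 2 and 3. The HFD libraries lay below both controls and above all pop3 and pop4 libraries (0 to 11.9 CPM), but the difference did not pass the test (log2 difference -2.47, SE 1.04, edgeR adjusted p = 0.217). With the 8 libraries of the Tim4+ populations alone, or in limma-voom, it passed (adjusted p = 0.0174 and 0.0457). The class II genes H2-Aa (1647 and 1577 CPM on the CD, 1191 and 1252 CPM on the HFD), H2-Ab1 (CD 807 and 880.4, HFD 916 and 1054), H2-Eb1 (CD 751 and 768, HFD 810.01 and 866) and the invariant chain gene Cd74 (CD 1216 and 1183, HFD 1193 and 1417) were abundant in all 4 libraries. The resident receptor genes Lyve1 (CD 895 and 775, HFD 579 and 567), Folr2 (CD 838 and 815, HFD 689 and 576) and Cd163 (CD 633 and 693, HFD 573 and 524) were present throughout. Itgax, which encodes CD11c, stood at 0.349 to 2.87 CPM. Defining genes of T cells (Cd3e, Cd3d, Cd3g), neutrophils (S100a8, S100a9) and mast cells (Cpa3, Tpsb2) were at 0 to 0.882 CPM in every pop2 library. Adipoq, the adiponectin gene of adipocytes, was at 8.60 and 176 CPM on the CD and 0.396 and 5.12 CPM on the HFD, with most of it in CD library 8. Summed levels of most marker lists are given with the other cell types below, and some were not near 0. The haemoglobin gene Hba-a1 was at 98.3 and 0.349 CPM (CD) and 72.2 and 103 CPM (HFD), and only CD library 8 was nearly free of it. In bulk samples of this kind, fewer cells of a type and less RNA per cell cannot be told apart.

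**Figure D1:**
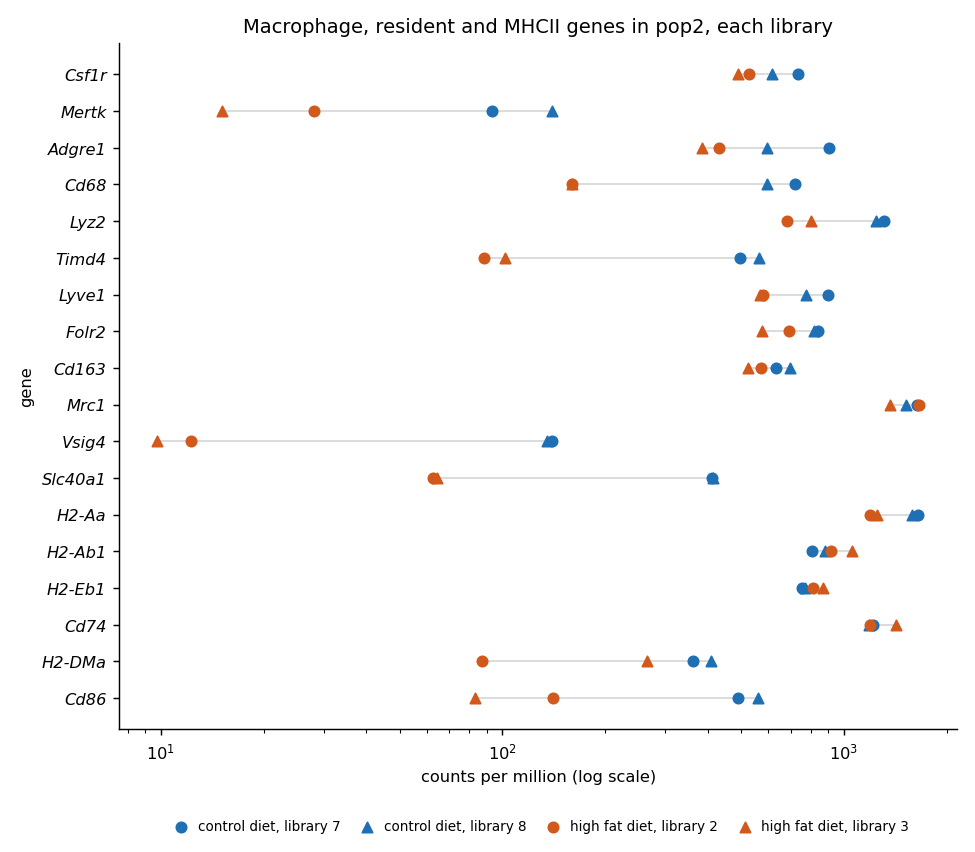
Level of macrophage, resident macrophage and class II presentation genes in each of the 4 pop2 libraries, in CPM on a log axis (blue, control diet; orange, high fat diet; circles and triangles, the libraries of a diet). Vsig4, Slc40a1, Timd4, Cd68 and Cd86 show wide gaps between the diets, while in Cd74 and Mrc1 the diets overlap. Of the genes drawn, Adgre1, Cd68, Lyz2, H2-DMa and Cd86 passed the test, all lower on the high fat diet.

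Some measures of library quality also followed the diet. Total counts were 4.73 and 5.86 M on the CD and 4.48 and 3.75 M on the HFD, where 3 counts correspond to 0.661, 0.523, 0.594 and 0.698 CPM, a floor that covers counting error only, because amplified reads were not tagged by molecule. The libraries of a diet correlated across genes at 0.873 (CD) and 0.826 (HFD; Pearson, log2 CPM, genes are not independent replicates). Background, taken as the summed level of olfactory and vomeronasal receptor genes, was 386 and 396 CPM on the CD and 486 and 682 CPM on the HFD. Rn45s, a ribosomal RNA precursor, was at 395 and 432 CPM on the CD and 1579.9 and 1780.2 CPM on the HFD (log2 difference 2.02, SE 0.36, adjusted p = 0.00227). The nuclear RNA Malat1 was at 1656 and 1835 CPM (CD) and 3307 and 3550.1 CPM (HFD) (0.98, SE 0.20, adjusted p = 0.00626). The part of these RNAs in the differences below was not tested, but the background sum was entered as a covariate. Since background was higher in both HFD libraries than in both controls, this covariate and diet cannot be fully told apart in pop2.

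Among the genes called, more were lower than higher on the HFD. Counts were tested with edgeR's quasi-likelihood F test in 1 fit of all 25 libraries and 10 group means, with Benjamini-Hochberg adjustment over 16961 genes, and a gene is said to be called where the adjusted p was under 0.05. In pop2, 128 genes were higher (0.755% of those tested) and 583 lower (3.44%) on the HFD. Of these, 127 and 578 had both HFD libraries on the same side of both CD libraries. Over all genes tested, both HFD libraries lay above both controls for 4895 genes (28.9%) and below for 3136 (18.5%), so a lack of overlap alone marks no gene. A stricter separation, at least 2 times between the nearest libraries with 10 CPM or more in both libraries of the higher diet, was met by 450 genes upward (2.65%) and 930 downward (5.48%). With library totals in place of TMM factors 197 genes were higher and 387 lower, and the median log2 difference of all genes, 0.30 with TMM, moved up by 0.23 (by 0.15 and 0.16 with DESeq2 and upper-quartile factors). DESeq2's Wald test called 880 higher and 1023 lower, so the balance of calls depends on the tool.

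The number of calls rested on the other libraries. With the 16 adipose libraries alone 20 genes were higher and 229 lower, and with the 4 pop2 libraries alone edgeR called 0 genes (762 higher and 934 lower at an unadjusted p under 0.05). A call is described below as kept where it held in each of 7 further fits: with offsets for GC content, with the background covariate, with the adipose libraries alone and with each pop2 library left out. Where a call is said to be lost without either of 2 libraries, it was lost with each left out in turn. Of the calls, 4 higher and 147 lower were kept. All 151 also held with the 3 other scalings and in DESeq2's Wald test, and 3 higher and 49 lower in limma-voom, but 0 higher and 14 lower with the 8 Tim4+ libraries alone. Of the kept genes of the lists below, Cd68, Lamp2 and Ctsc lost the call in limma-voom. Lyz2, Fn1, Acly, Clec7a, Cr1l and Casp1 lost it there and also with the 8 Tim4+ libraries. With a pop2 library left out the calls ranged from 41 to 154 higher and from 361 to 704 lower, and the count moved by more than 1.5 times without CD library 7 (41 higher), CD library 8 (68 and 385) and HFD library 3 (67 and 361). Of the 80 called genes that the naming rule gave, 48 lost the call with the 16 adipose libraries and 24 with the background covariate. With DESeq2 size factors 19 lost it, and 20 each with upper-quartile factors and library totals. Lost with all 3 of these scalings were, among others, Adgre1, Tyrobp, Clec4n, Ccl6, Ccl9, Tpp1, Cpt1a, Il18, Tlr7, Ireb2, Ndufv2, Atp5j, Sod2 and Mdm2. Below, these fits are named only for some genes.

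**Figure D2:**
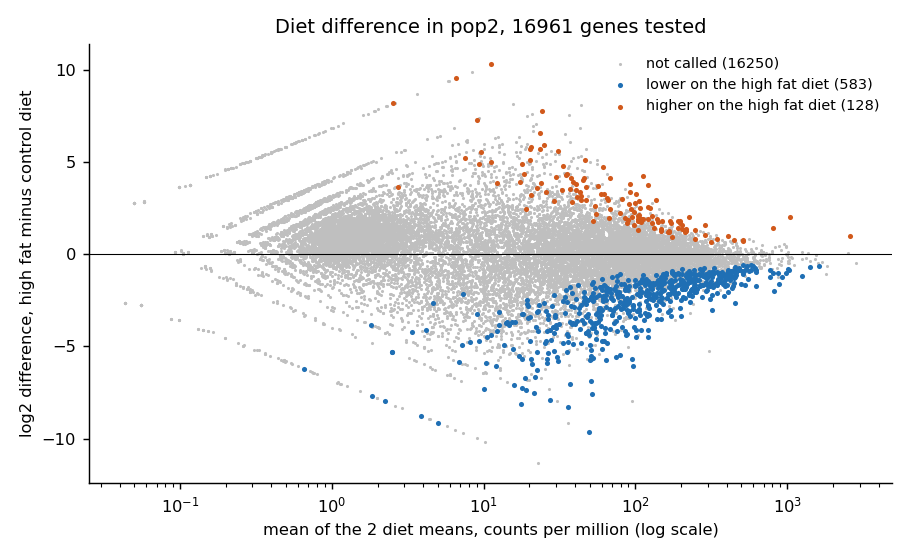
Log2 difference between diets in pop2 (high fat minus control, vertical axis) against mean level (CPM, log axis) for the 16961 genes tested. Called genes are coloured: 583 were lower (blue) and 128 higher (orange) on the high fat diet, and the lower calls lie mostly at levels above 10 CPM.

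The kept genes that fell spanned log2 differences of -0.79 to -7.60, with a median of -2.26. The value of -7.60 is that of Gin1, which was around the 3-count floor on the HFD, so it gives no fold. Dpm2 (chromosome 2, 32570858 to 32573571), a subunit of the enzyme that makes dolichol-phosphate mannose for protein glycosylation, had the lowest adjusted p. It was read at 173 and 197 CPM on the CD and 4.15 and 3.02 CPM on the HFD, a log2 difference of -5.68, SE 0.46 (adjusted p = 5.91e-07). Neither HFD library came within 41.7 times of a control. Ctbs (chromosome 3, 146450467 to 146465848), a lysosomal chitobiase that trims sugars from glycoproteins, was at 96.3 and 286 CPM (CD) and 2.37 and 3.26 CPM (HFD) (-6.08, SE 0.74, adjusted p = 7.50e-05). Med31, a subunit of the Mediator complex of transcription, was at 117 and 94.5 CPM (CD) and 1.98 and 6.75 CPM (HFD) (-4.60, SE 0.54), and Rpp30, a subunit of ribonuclease P, at 213 and 109 CPM (CD) and 8.11 and 10.00 CPM (HFD) (-4.15, SE 0.46). All 4 of these genes had both HFD libraries under 11 CPM. Gin1, which encodes an integrase-like protein, was at 40.8 and 167 CPM on the CD and at 0.989 and 0 CPM on the HFD.

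Other kept genes were chosen after their values were seen, as examples. Apoa1bp, which encodes an epimerase that repairs NAD(P)H hydrates, was at 69.6 and 130.2 CPM on the CD and 4.15 and 1.16 CPM on the HFD (-5.21, SE 0.65, adjusted p = 9.91e-05). Fdx1l, a ferredoxin of iron-sulfur cluster assembly, was at 40.8 and 62.6 CPM (CD) and 0.396 and 1.63 CPM (HFD) (-5.67, SE 0.82, adjusted p = 0.000394). Its HFD values were close to the 3-count floor, so the size of this difference depends on edgeR's prior count. Mcee, the methylmalonyl-CoA epimerase, was at 193 and 171 CPM (CD) and 7.72 and 25.4 CPM (HFD) (-3.46, SE 0.46). The mitochondrial peroxiredoxin Prdx3 (CD 366 and 366, HFD 106 and 65.1; -2.09, SE 0.31) and the mitochondrial ribosomal protein genes Mrpl32 (-2.29), Mrpl35 (-2.51) and Mrpl30 (-1.97) fell as well. In each of these genes the lower control library was at least 2.77 times the higher HFD library. No call of the oxidative phosphorylation list was kept, and the mitochondrial genes Tomm40 and Cox4i1 were called higher (both described below).

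The tetraspanin gene Cd53 was at 1339.5 and 1291 CPM on the CD and 409 and 242 CPM on the HFD (-2.01, SE 0.26, adjusted p = 0.000166). Gpr34, a receptor for lysophosphatidylserine, was at 709 and 858 CPM (CD) and 121 and 125 CPM (HFD) (-2.67, SE 0.46), and Cd47, the ligand by which cells resist being engulfed, at 639 and 578 CPM (CD) and 141 and 246 CPM (HFD) (-1.65, SE 0.25). Asah1, the acid ceramidase of lysosomes, was at 976 and 940.2 CPM (CD) and 302 and 275 CPM (HFD) (-1.73, SE 0.25). The proteasome subunit genes Psma1 (-2.33) and Psma4 (-1.56), the cochaperone gene Chordc1 (-3.13) and Fgl2, a fibrinogen-like protein gene (-3.57), fell too. The genes of these paragraphs outside the rule for named genes were chosen after their values were seen.

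**Figure D3:**
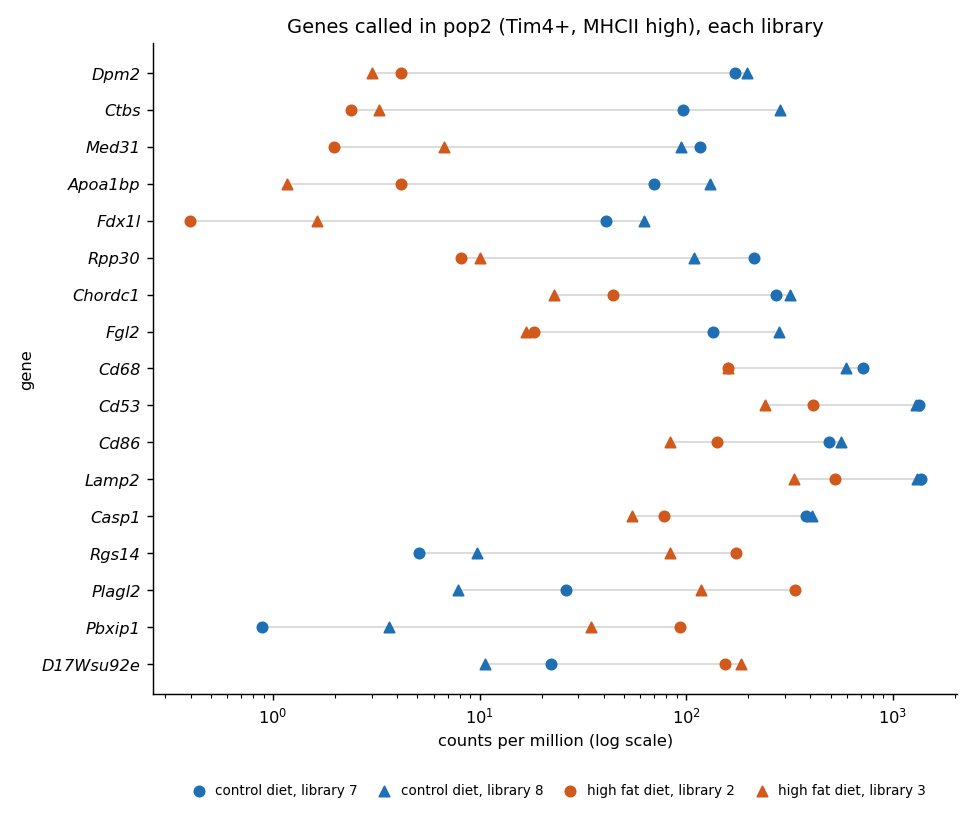
Level of 17 kept genes in each pop2 library, in CPM on a log axis (blue, control diet; orange, high fat diet; circles and triangles, the libraries of a diet). The 13 upper genes have both high fat diet libraries below both controls, and the 4 genes at the bottom have them above.

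The 4 kept genes that rose had low levels on the CD. Rgs14 (chromosome 13, 55369732 to 55384687), a regulator of G protein signalling, was read at 5.07 and 9.76 CPM on the CD and 175 and 83.97 CPM on the HFD (4.12, SE 0.56, adjusted p = 0.00027). Plagl2, a zinc finger transcription factor gene, was at 26.2 and 7.84 CPM (CD) and 335 and 118 CPM (HFD) (3.74, SE 0.57, adjusted p = 0.000636). Pbxip1, whose product binds the PBX transcription factors, was at 0.882 and 3.66 CPM (CD) and 93.6 and 34.7 CPM (HFD) (4.79, SE 0.78), and D17Wsu92e at 22.3 and 10.6 CPM (CD) and 154 and 184 CPM (HFD) (3.36, SE 0.58). In 3 of the 4 genes the HFD libraries differed from each other by more than 2 times, with library 2 the higher, and in D17Wsu92e library 3 was the higher.

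The widest gaps among the higher calls were found in genes at low levels on the CD, some of them nearly undetected. Ccdc85b was at 0.882 and 0.872 CPM on the CD and 27.7 and 65.4 CPM on the HFD (5.70, SE 1.05, adjusted p = 0.00281), a call lost without CD library 7. Nrf1, a transcription factor of nuclear genes for mitochondrial proteins, was at 5.73 and 4.88 CPM (CD) and 88.4 and 80.7 CPM (HFD) (3.99, SE 0.82, adjusted p = 0.00632). Fbxl6, an F-box protein gene, was at 4.19 and 2.44 CPM (CD) and 53.2 and 82.6 CPM (HFD) (4.36, SE 0.91), and Tomm40, the channel for import of proteins into mitochondria, at 0.882 and 1.39 CPM (CD) and 48.1 and 30.01 CPM (HFD) (5.07, SE 1.23). Zfp771 had 0 counts in both controls and 31.9 and 13.03 CPM on the HFD, at least 19.7-fold above the 3-count floor of each control. The kinase gene Sik2 (CD 0.220 and 0.523, HFD 13.7 and 15.6), Ftsj1 (CD 0.220 and 0, HFD 10.5 and 25.6), Cpsf4 (CD 2.20 and 6.62, HFD 168 and 66.99), Bloc1s5 (CD 0.882 and 5.75, HFD 69.8 and 62.3), Pde1b (CD 2.42 and 1.05, HFD 29.5 and 40.9) and 4930579G24Rik (CD 0.441 and 0.523, HFD 10.9 and 82.3) also had wide gaps. Except for Ccdc85b, the calls of the genes in this group were lost without CD library 7 and also without CD library 8. Without HFD library 2 those of Cpsf4, Bloc1s5 and Pde1b were lost, and without HFD library 3 those of Ftsj1, 4930579G24Rik, Bloc1s5 and Pde1b. With the 16 adipose libraries the calls of the genes in this group were lost except those of Ccdc85b and Nrf1. Those of Tomm40 and Pde1b were also lost with GC offsets (adjusted p = 0.0631 and 0.0856).

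Among the lower calls with the widest gaps, several genes were at or near 0 on the HFD. Lipt2, a transferase of lipoic acid synthesis, was at 50.03 and 59.6 CPM on the CD and 0.396 and 0 CPM on the HFD (adjusted p = 0.00845). Tatdn1 was at 99.8 and 48.1 CPM (CD) and 0.396 and 0.698 CPM (HFD), Zfp97 at 35.9 and 49.7 CPM (CD) and 0.198 and 0.233 CPM (HFD), BC048403 at 34.8 and 39.7 CPM (CD) and 0 and 0.698 CPM (HFD), and Nudt5, a hydrolase of ADP-ribose, at 41.4 and 44.4 CPM (CD) and 0.791 and 0 CPM (HFD). The HFD values of these 5 genes lay around the 3-count floor, so no fold is given. Scimp, an adaptor of MHC class II and Toll-like receptor signalling, was at 60.6 and 140.3 CPM (CD) and 0.989 and 0.698 CPM (HFD) (-6.86, SE 1.51), Cav1, the caveolin-1 gene, at 106 and 147 CPM (CD) and 2.57 and 2.09 CPM (HFD) (-5.74, SE 1.27), and the carbonyl reductase gene Cbr4 at 56.6 and 65.4 CPM (CD) and 1.19 and 0.930 CPM (HFD) (-5.82, SE 1.21). All of these had both HFD libraries at under 2.6 CPM. Scimp and Cbr4 were close to the 3-count floor on the HFD, so their fitted differences depend on edgeR's prior count. Without HFD library 3 the calls of Lipt2, Zfp97, Nudt5, Scimp, Cav1 and Cbr4 were lost, and without HFD library 2 those of Zfp97, BC048403, Nudt5, Scimp and Cav1. Without either CD library, or with GC offsets, that of Nudt5 was lost, and with the 16 adipose libraries those of Tatdn1, BC048403, Nudt5 and Scimp.

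The diet difference varied with the GC content of the transcripts. Genes with a mean of at least 30 CPM in adipose tissue were split into 5 bins of equal size by GC content, from 32.8% to 43.5% in bin 1 to 54.4% to 69.2% in bin 5. The median log2 difference between diets was -0.78 in bin 1, then -0.52, -0.26 and 0.05, and 0.48 in bin 5. In bin 1, 214 genes were called lower and 7 higher, and in bin 5, 26 lower and 56 higher. Bin 5 exceeded bin 1 by 0.62 and 0.81 in HFD libraries 2 and 3 and fell short of it by 0.53 and 0.47 in CD libraries 7 and 8 (median log2 deviation from the mean of the adipose libraries). In the other populations the medians of bins 1 and 5 were -0.23 and 0.31 in pop1, -0.22 and 0.43 in pop3, and -0.02 and 0.09 in pop4.

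Sequences from the middle of the coding part of 8 transcripts show the contrast, each 90 bases long with G and C in capitals (GENCODE M21, GRCm38, which is mm10; introns within a span are left out). The first 3 belong to genes that fell, the next 3 to genes that rose, and the last 2 to genes that fell although their whole transcripts are GC-rich (53.5% in Dpm2, 60.7% in Fdx1l).
Chordc1 (chr9:18305310-18308797, plus strand): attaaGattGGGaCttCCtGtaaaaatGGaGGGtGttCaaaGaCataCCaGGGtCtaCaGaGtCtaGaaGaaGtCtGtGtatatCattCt
Gpr34 (chrX:13639750-13639839, plus strand): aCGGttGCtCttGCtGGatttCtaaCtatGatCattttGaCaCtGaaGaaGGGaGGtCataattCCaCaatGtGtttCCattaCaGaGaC
Rpp30 (chr19:36094391-36100186, plus strand): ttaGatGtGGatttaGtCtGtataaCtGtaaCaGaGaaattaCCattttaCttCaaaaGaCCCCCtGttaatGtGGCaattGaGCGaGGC
Rgs14 (chr13:55380040-55380911, plus strand): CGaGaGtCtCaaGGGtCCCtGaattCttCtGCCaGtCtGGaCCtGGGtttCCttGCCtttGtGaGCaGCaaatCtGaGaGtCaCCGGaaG
Pbxip1 (chr3:89447220-89447309, plus strand): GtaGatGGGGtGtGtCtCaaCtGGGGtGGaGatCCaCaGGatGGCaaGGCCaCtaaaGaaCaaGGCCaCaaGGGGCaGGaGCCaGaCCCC
Ccdc85b (chr19:5457050-5457139, minus strand): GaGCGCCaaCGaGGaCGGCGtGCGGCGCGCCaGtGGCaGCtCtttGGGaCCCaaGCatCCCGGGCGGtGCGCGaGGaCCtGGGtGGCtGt
Dpm2 (chr2:32571284-32572374, plus strand): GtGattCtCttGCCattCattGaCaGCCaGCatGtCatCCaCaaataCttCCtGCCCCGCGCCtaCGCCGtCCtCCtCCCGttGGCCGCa
Fdx1l (chr9:21068092-21073138, minus strand): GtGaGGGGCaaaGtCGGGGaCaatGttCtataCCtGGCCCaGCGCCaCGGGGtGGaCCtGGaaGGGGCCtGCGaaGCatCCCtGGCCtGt
Within the printed stretches, Rpp30's held 37.8% G and C, Chordc1's 38.9% and Gpr34's 40.0%, against 53.3% in Rgs14's, 58.9% in Pbxip1's and 72.2% in Ccdc85b's. Dpm2's held 57.8% and Fdx1l's 64.4%. The GC bins used whole transcripts, which held 39.7% in Rpp30, 35.7% in Chordc1, 36.4% in Gpr34, 57.6% in Rgs14, 56.1% in Pbxip1 and 54.8% in Ccdc85b. These genes were picked for low or high GC content. Of the kept higher genes not printed, Plagl2 had 50.8% and D17Wsu92e 55.6%. Over whole transcripts the median was 54.8% for higher calls, 44.9% for lower calls and 50.2% for genes not called.

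With offsets for GC content in each library, 78 genes were higher (0.46%) and 418 lower (2.46%), and the medians of the bins lay between -0.16 and -0.23. In both fits 54 genes were called higher (42.2% of 128) and 347 lower (59.5% of 583). The kept lower genes still had a median GC content of 44.8%. The offsets lowered the diet difference of GC-rich genes, with the median going from 0.05 to -0.23 in bin 4 and from 0.48 to -0.20 in bin 5. A wider difference in genes that fell with a GC content above 50% follows from this and is no further evidence for them. Among these, Dpm2 moved from -5.68 to -6.05, Fdx1l from -5.67 to -6.60, and Cd68 from -2.04 to -2.36. The offsets were chosen after the data were seen.

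**Figure D4:**
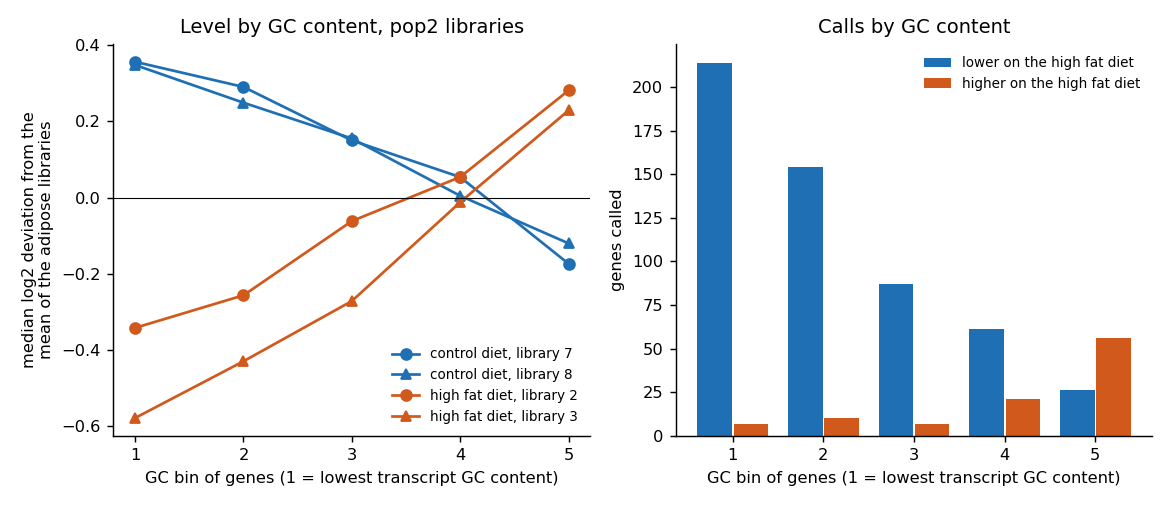
Left, median log2 deviation of each pop2 library from the mean of the adipose libraries, by bin of genes in transcript GC content, and right, number of genes called in each bin. The control libraries (blue) decline and the high fat diet libraries (orange) climb with GC content, and lower calls go from 214 in bin 1 to 26 in bin 5.

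The lists below are read against all genes tested, of which 0.755% were called higher, 3.44% called lower, 28.9% had both HFD libraries above both controls and 18.5% had both below. This reference is not matched to the lists in level. Genes not called had a median of 11.7 CPM in pop2, and genes called lower 118 CPM. Genes with at least 30 CPM in adipose tissue had medians from -0.78 (GC bin 1) to 0.48 (bin 5), or -0.16 to -0.23 with GC offsets. The lists were not compared with genes of like level. Of 18 macrophage identity genes 4 were lower on the HFD and 0 higher, with a median log2 difference of -0.41 against 0.30 over all genes tested. Cd68 (chromosome 11, 69664213 to 69666170), a glycoprotein of macrophage lysosomes, was read at 716 and 597 CPM on the CD and 159 and 160.3 CPM on the HFD (-2.04, SE 0.28, adjusted p = 0.000303). Lyz2, the macrophage lysozyme gene, was at 1312 and 1239 CPM (CD) and 679 and 799 CPM (HFD) (-0.79, SE 0.14, adjusted p = 0.00181). Both calls were kept. Adgre1, which encodes F4/80, was at 905 and 594 CPM (CD) and 432 and 383 CPM (HFD) (-0.88, SE 0.22, adjusted p = 0.0276; 0.100 with GC offsets), a call also lost without CD library 7 or either HFD library. The signalling adaptor gene Tyrobp was at 639 and 591 CPM (CD) and 386 and 417 CPM (HFD) (-0.61, SE 0.16), and its call was lost with any pop2 library left out. Csf1r, the receptor for CSF1 on which macrophages depend, was at 733 and 613 CPM (CD) and 527 and 489 CPM (HFD), a difference that passed with GC offsets only (adjusted p = 0.205, and 0.00684 with offsets). Mertk, a receptor for dying cells, was at 93.2 and 139.8 CPM on the CD and 28.1 and 15.1 CPM on the HFD (adjusted p = 0.299), and Fcgr1, the high-affinity Fc receptor, at 135 and 213 CPM (CD) and 61.3 and 75.8 CPM (HFD) (adjusted p = 0.162). The transcription factor gene Cebpa lay above both controls, at 17.2 and 37.3 CPM (CD) and 98.5 and 84.4 CPM (HFD) (1.75, SE 0.51, adjusted p = 0.0571). It was called in 5 of 16 alternatives (the 3 other scalings, at least 50 counts and DESeq2's Wald test), and with GC offsets it was at 0.69 (adjusted p = 0.561).

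The resident macrophage list had 1 of 26 tested genes lower, the lectin gene Clec4n (74.5 and 241 CPM on the CD, 7.72 and 31.4 on the HFD; adjusted p = 0.0457, and 0.0917 with GC offsets), and its call was lost without CD library 8 or HFD library 2. Both HFD libraries lay below both controls for 15 of the 26 and above for 3 (18.5% and 28.9% of all genes tested), and the median was -0.31. Vsig4, a complement receptor of resident macrophages, showed a wide gap, from 139.7 and 135 CPM on the CD to 12.3 and 9.77 CPM on the HFD, but its error was large (-3.64, SE 1.25, adjusted p = 0.116). Mrc1, the mannose receptor gene, was at 1630.2 and 1513 CPM (CD) and 1661 and 1365 CPM (HFD), so that its diets overlapped. The error of each gene is estimated over all 10 groups, not from the pop2 libraries alone.

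Of 17 genes of class II presentation 2 were lower and 0 higher, with a median log2 difference of 0.04 (-0.45 with GC offsets). Cd86, a ligand for CD28 on T cells, was read at 491 and 559 CPM on the CD and 141 and 83.3 CPM on the HFD (-2.23, SE 0.36, adjusted p = 0.00101), and its call was kept. H2-DMa, a subunit of the peptide exchanger of class II molecules, was at 361 and 407 CPM (CD) and 87.1 and 266 CPM (HFD) (-1.12, SE 0.32, adjusted p = 0.0497), with HFD library 2 far below library 3, and its call was lost in 12 of 16 alternatives, among them the 3 other scalings, DESeq2, limma-voom and the fits without CD library 8 or HFD library 2 (adjusted p from 0.000216 to 0.430 over the 16). The log2 differences of the gate's own class II genes were -0.40, SE 0.24 for H2-Aa, 0.23, SE 0.33 for H2-Ab1, 0.14, SE 0.53 for H2-Eb1 and 0.12, SE 0.17 for Cd74, and with GC offsets the last 3 had the opposite sign. Ciita, the transcriptional activator of class II genes, lay above both controls (CD 39.7 and 36.95, HFD 121 and 170.04 CPM; adjusted p = 0.264), and the ubiquitin ligase gene March1, which removes class II and CD86 from the surface, lay below (CD 371 and 436, HFD 166 and 181 CPM; adjusted p = 0.0747). Reads of the H2 genes may be split between near-identical copies.

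Of 20 genes of class I presentation 1 was higher and 2 were lower, with a median of 0.12 (-0.42 with GC offsets). The proteasome subunit gene Psmb8 was at 128 and 308 CPM on the CD and 103 and 47.9 CPM on the HFD (-1.53, SE 0.35, adjusted p = 0.0142), a call lost without CD library 8 or HFD library 3. B2m, the light chain of class I molecules, was at 1422 and 1248 CPM (CD) and 738 and 704 CPM (HFD) (-0.89, SE 0.18, adjusted p = 0.0067), and Psmb10 at 28.2 and 64.8 CPM (CD) and 165 and 157 CPM (HFD) (1.79, SE 0.37, adjusted p = 0.00685). With GC offsets B2m and Psmb10 were not called (0.39 and 0.0819); B2m also lost its call without HFD library 3 and Psmb10 without CD library 7.

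The lysosome list had 4 of 39 genes lower and 1 higher (3.44% and 0.755% of all genes tested), with a median of -0.01 (-0.29 with GC offsets). Lamp2, a membrane protein of lysosomes, was at 1369 and 1316 CPM on the CD and 524 and 334 CPM on the HFD (-1.65, SE 0.27, adjusted p = 0.00116; -0.91 with GC offsets). Ctsc, the protease cathepsin C, was at 1619 and 1854 CPM (CD) and 731 and 797 CPM (HFD) (-1.18, SE 0.22, adjusted p = 0.00284). The calls of both and of Cd68 were kept. The peptidase gene Tpp1 (CD 508 and 575, HFD 349 and 197 CPM; -0.99, SE 0.27) and, in the other direction, Laptm5 (CD 428 and 325, HFD 666 and 625 CPM; 0.78, SE 0.19) were not called with GC offsets (adjusted p = 0.12 and 0.648), nor Laptm5 with any pop2 library left out, nor Tpp1 without either CD library or HFD library 3. Ctsb, the cathepsin B gene, was at 1719 and 1651 CPM (CD) and 1432 and 1339 CPM (HFD) and did not pass (adjusted p = 0.35).

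Among 28 genes of scavenging and efferocytosis, the uptake of dying cells, 1 was lower, with a median of -0.27. This was Clec7a, the dectin-1 receptor for fungal glucans, at 672 and 589.5 CPM on the CD and 106 and 159 CPM on the HFD (-2.25, SE 0.43, adjusted p = 0.00329), with a kept call. The complement list had 1 of 22 lower (3.44% of all genes tested were), with a median of -0.95, and 12 of the 22 had both HFD libraries below both controls (18.5% of all genes). Its called gene, Cr1l, a regulator that protects cells from complement, was at 155 and 133 CPM (CD) and 21.6 and 31.9 CPM (HFD) (-2.43, SE 0.46, adjusted p = 0.00351), also kept. C1qa, a chain of C1q, ran the other way, at 559.8 and 535 CPM (CD) and 681 and 714 CPM (HFD) (adjusted p = 0.669).

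Genes of lipid handling gave few calls. Sterol and fatty acid synthesis had 3 of 28 lower and 0 higher, with a median of -0.19. Acly, which makes cytosolic acetyl-CoA from citrate, was at 313 and 229 CPM on the CD and 75.6 and 80.5 CPM on the HFD (-1.79, SE 0.33, adjusted p = 0.00287), and its call was kept. The sterol oxidase gene Msmo1 was at 229 and 148 CPM (CD) and 19.4 and 28.4 CPM (HFD) (-2.98, SE 0.71, adjusted p = 0.0178), a call lost without either HFD library, and Nsdhl, of the same pathway, at 10.4 and 78.8 CPM (CD) and 0 and 1.16 CPM (HFD), a call lost without CD library 8, without either HFD library and with GC offsets. Fatty acid oxidation had 1 of 28 lower, with a median of -0.20. This was Cpt1a, which admits fatty acids to mitochondria, at 379.7 and 277 CPM (CD) and 166 and 150.5 CPM (HFD) (-1.05, SE 0.29, adjusted p = 0.0398), a call lost without CD library 7 or either HFD library and in 12 of 16 alternatives in all. Both HFD libraries lay above both controls for 8 of the 28 and below for 9 (28.9% and 18.5% of all genes tested). Hadha, a subunit of the mitochondrial enzyme of long-chain fatty acid oxidation, was at 26.4 and 32.4 CPM (CD) and 111 and 80.5 CPM (HFD) (log2 difference 1.703, SE 0.52, adjusted p = 0.0724), and it was called with library totals, with at least 50 counts and in DESeq2. Acadvl, the very long-chain acyl-CoA dehydrogenase, was at 24.9 and 22.8 CPM (CD) and 68.3 and 72.1 CPM (HFD) (1.56, SE 1.002, adjusted p = 0.457). These 2 members were separated upward by at least 2 times. Of 23 genes of cholesterol efflux 0 were called in either direction by edgeR, with a median of 0.02. The exporter gene Abca1 was at 748 and 715 CPM (CD) and 557 and 501 CPM (HFD) (adjusted p = 0.684).

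The lipid-associated macrophage list, genes that mark macrophages around dying adipocytes in obese fat, had 1 of 27 higher and 1 lower, with a median of -0.28. Lgals3, galectin-3, was at 242 and 245 CPM on the CD and 399 and 375 CPM on the HFD (0.67, SE 0.19, adjusted p = 0.0442), but its call was lost with GC offsets (adjusted p = 0.779) and with any pop2 library left out. Fabp5, a fatty acid binding protein gene, was called at low levels that overlapped between the diets (CD 0.661 and 15.2, HFD 0.198 and 0.698 CPM), and its call was lost with GC offsets and without CD library 8 or either HFD library. Trem2, the lipid receptor of these cells, lay above both controls on the HFD (CD 21.2 and 86.5, HFD 98.9 and 219.6 CPM; adjusted p = 0.28), and Lpl, lipoprotein lipase, overlapped (CD 475 and 539, HFD 477 and 376 CPM).

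Of 21 tested inflammatory cytokine genes 2 were lower, with a median of 0.11. Casp1, the protease that matures interleukins 1 beta and 18, was at 381 and 405 CPM on the CD and 77.8 and 54.4 CPM on the HFD (-2.57, SE 0.38, adjusted p = 0.000442), with a kept call. Il18 itself was at 198 and 168 CPM (CD) and 42.1 and 83.04 CPM (HFD) (-1.55, SE 0.38, adjusted p = 0.0229, and 0.125 with GC offsets), a call lost without either CD library or HFD library 2. Il1b was at 0.441 and 0.523 CPM on the CD and at 0 and 39.1 CPM on the HFD, so 1 library carried it.

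The chemokine list had 4 of 25 lower and 0 higher, with a median of -0.56. Ccl6 was at 1984 and 2002 CPM on the CD and 1292 and 1239 CPM on the HFD (-0.65, SE 0.13, adjusted p = 0.00581) and Ccl9 at 1745 and 1759 CPM (CD) and 1063 and 1121 CPM (HFD) (-0.68, SE 0.14, adjusted p = 0.00583). In both the libraries of a diet agreed closely, and both calls were lost with GC offsets (adjusted p = 0.181 and 0.669). Ppbp, a chemokine also found in platelets, was at 45.4 and 97.6 CPM (CD) and 0.198 and 0.233 CPM (HFD), and Ccl17 was carried by 1 control library (CD 198 and 0.174, HFD 0.198 and 0 CPM). Their calls were lost without either HFD library, and that of Ccl17 also without CD library 7. Cxcl13, which attracts B cells, showed one of the widest gaps without passing (CD 821 and 369, HFD 3.76 and 27.9 CPM; -5.23, SE 1.74, adjusted p = 0.100), and Ccl11, which attracts eosinophils, was at 98.3 and 117 CPM (CD) and 8.11 and 0.465 CPM (HFD) (adjusted p = 0.0637). Of 13 tested chemokine receptor genes 1, Ccrl2, was higher (median -0.19), carried by HFD library 2 (CD 0.441 and 0.349, HFD 36.8 and 0.930 CPM) and not called without it or without either CD library.

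Toll-like receptor genes and their NF-kB pathway had 2 of 30 lower and a median of 0.16. The RNA sensor gene Tlr7 was at 174 and 317 CPM on the CD and 43.9 and 84.4 CPM on the HFD (-1.93, SE 0.52, adjusted p = 0.0379) and Tlr13 at 59.1 and 6.10 CPM (CD) and 2.18 and 4.65 CPM (HFD). Both were lost with GC offsets and without either HFD library, Tlr7 also without CD library 8 and Tlr13 without CD library 7. Tlr4, the receptor for bacterial lipopolysaccharide, lay below both controls (CD 638 and 612, HFD 303 and 126 CPM; adjusted p = 0.055). The interferon-stimulated list had 2 of 30 lower and a median of -0.82. Usp18, a protease that removes ISG15 from proteins, was carried by CD library 8 (CD 1.10 and 68.7, HFD 0 and 1.40 CPM), and its call was lost without CD library 8 or either HFD library. In the alternative activation list 2 of 22 were lower, Ccl17 and Fn1, with a median of -0.0028.

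Fn1, the fibronectin gene, was at 233 and 57.5 CPM on the CD and 29.1 and 13.7 CPM on the HFD (-2.75, SE 0.43, adjusted p = 0.00074), with a kept call although the controls differed 4 times between them. It was the 1 gene called of 30 in the matrix list, whose median was 0.40. Of 32 growth factor genes 0 were called by edgeR, with a median of 0.95. Their summed level went the other way, at 3163 and 2908 CPM on the CD and 2090 and 2043 CPM on the HFD. Pdgfc, a platelet-derived growth factor gene, was at 351 and 296 CPM on the CD and 185 and 205 CPM on the HFD (-0.73, SE 1.003, adjusted p = 0.751), Igf1, insulin-like growth factor 1, at 1919 and 1818 CPM (CD) and 1317 and 1331 CPM (HFD) (-0.49, SE 1.20, adjusted p = 0.864), and the morphogen gene Bmp2 at 203 and 99.9 CPM (CD) and 70.8 and 70.02 CPM (HFD) (adjusted p = 0.583). These 3 were among 5 genes of the list with both HFD libraries below both controls (18.5% of all genes tested), and 15 had both above (28.9%). Pdgfa, of the family of Pdgfc and the member the rule names, was among the 15, at 7.05 and 0.349 CPM (CD) and 23.3 and 17.2 CPM (HFD) (2.46, SE 2.47, adjusted p = 0.658). Pdgfc, Igf1 and Bmp2 were chosen after their values were seen.

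Iron and heme genes had 2 of 19 tested lower, with a median of -0.48. Slc11a2, an importer of iron, was at 66.6 and 16.6 CPM on the CD and 2.18 and 3.26 CPM on the HFD (-3.93, SE 0.86, adjusted p = 0.0106), a call lost without CD library 7 or either HFD library. Ireb2, an iron sensor that binds mRNA, was at 127 and 280.5 CPM (CD) and 82.7 and 72.8 CPM (HFD) (-1.39, SE 0.39), a call lost with GC offsets, without CD library 8 and without either HFD library. Slc40a1, the exporter ferroportin, was not called although the libraries of a diet were nearly equal, at 412 and 413 CPM on the CD and 62.7 and 64.4 CPM on the HFD (-2.70, SE 1.24, adjusted p = 0.274, and 0.0219 with the 8 Tim4+ libraries alone). Spic, a transcription factor of iron-recycling macrophages, was at 163 and 143 CPM (CD) and 16.4 and 0.930 CPM (HFD) (adjusted p = 0.255).

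Oxidative phosphorylation had 3 of 32 genes lower and 1 higher, with a median of -0.11. Uqcrc1, of complex III, was at 50.7 and 155 CPM on the CD and 15.2 and 23.3 CPM on the HFD (-2.42, SE 0.58, adjusted p = 0.0176), Ndufv2, of complex I, at 355 and 323 CPM (CD) and 97.3 and 211 CPM (HFD) (-1.13, SE 0.28), Atp5j, of the ATP synthase, at 249 and 272 CPM (CD) and 166 and 127 CPM (HFD) (-0.83, SE 0.23), and Cox4i1, of complex IV, at 215 and 291 CPM (CD) and 422 and 462 CPM (HFD) (0.81, SE 0.22). None of these 4 calls was kept: without CD library 8 each was lost, and with GC offsets those of Ndufv2 and Cox4i1 (adjusted p = 0.338 and 0.822). HFD library 2 left out also ended the calls of Uqcrc1, Ndufv2 and Cox4i1, HFD library 3 those of Uqcrc1, Atp5j and Cox4i1, and CD library 7 that of Cox4i1. In the hypoxia and glycolysis list 1 of 25 was lower (median 0.53), the oxygen-regulated transcription factor gene Hif1a (CD 510.2 and 424, HFD 188 and 41.4 CPM; -2.02, SE 0.42, adjusted p = 0.00626, and 0.0521 with GC offsets). The antioxidant list had 2 of 22 lower (median 0.09), the superoxide dismutase gene Sod2 (CD 70.5 and 152, HFD 35.6 and 44.7 CPM; -1.47, SE 0.39) and the catalase gene Cat (CD 226 and 295, HFD 134 and 28.6 CPM; -1.68, SE 0.44). Both were lost without CD library 8 or HFD library 3, Sod2 also without HFD library 2 and with GC offsets.

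Of 28 apoptosis and survival genes 3 were lower (median -0.10): the death receptor gene Fas (CD 114 and 152, HFD 35.02 and 3.26 CPM; -2.79, SE 0.68), Mdm2, which restrains p53 (CD 156 and 134, HFD 39.8 and 68.9 CPM; -1.42, SE 0.36), and Bcl2a1d, one of several near-identical copies whose reads may be split (CD 5.73 and 4.01, HFD 0.198 and 0 CPM). None was kept: HFD library 3 left out ended the calls of Fas and Bcl2a1d, HFD library 2 that of Mdm2, CD library 8 those of Fas and Mdm2, CD library 7 that of Mdm2, and GC offsets those of Fas and Mdm2. In the edgeR fit of all 25 libraries no gene was called among 28 proliferation, 24 ER stress and 30 immediate early and heat shock genes. With GC offsets 2 ER stress genes were called lower, the transcription factor gene Xbp1 (-0.86, adjusted p = 0.0236, against -0.53 and 0.141 without) and Sdf2l1 (-2.28, adjusted p = 0.0326, against -1.67 and 0.118). Separated members of these lists were Mcm2, a replication helicase subunit (CD 1.10 and 3.31, HFD 50.1 and 44.9 CPM), the stress-induced phosphatase subunit gene Ppp1r15a (CD 0.882 and 3.49, HFD 67.3 and 10.00 CPM) and Jund, a subunit of AP-1 (CD 34.4 and 36.1, HFD 102 and 93.04 CPM). All 3 lay above both controls on the HFD, at adjusted p of 0.125, 0.263 and 0.239. All 3 passed in DESeq2, and Mcm2 also with the 16 adipose libraries.

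Markers of other cell types gave few calls. Of the 14 classical monocyte genes 2 were lower, Fn1 among them, and 5 had both HFD libraries below both controls. Ccr2, the receptor by which monocytes enter tissue, was at 539.7 and 359 CPM on the CD and 245 and 254 CPM on the HFD (adjusted p = 0.584). The non-classical monocyte list had 1 of 11 lower, Gngt2 (CD 9.70 and 6.45, HFD 2.18 and 0.233 CPM; lost without either CD library or HFD library 3), the platelet list 1 of 9 (Ppbp) and the peritoneal macrophage list 1 of 13 (Fn1). In the edgeR fit of all 25 libraries no gene was called in the lists for T, B and NK lymphocytes, neutrophils, eosinophils with mast cells, dendritic cells, adipocytes, stroma, endothelium, mesothelium and red cells. Retn, the resistin gene of the adipocyte list, was at 23.8 and 97.8 CPM (CD) and 0 and 0.465 CPM (HFD) (adjusted p = 0.0575) and passed in DESeq2 (0.00442), in limma-voom and with at least 50 counts. Ly6a, which encodes Sca-1, was at 83.5 and 117 CPM (CD) and 3.56 and 3.02 CPM (HFD) (adjusted p = 0.0792) and passed in DESeq2 (0.0055). The summed level of the 12 T cell genes in the table was 48.7 and 54.0 CPM on the CD and 15.2 and 17.7 CPM on the HFD, and that of the 13 endothelial genes, which include Cd36, 3109 and 2513 CPM on the CD and 1239.95 and 1645 CPM on the HFD. The sum of the neutrophil genes was 29.3 and 58.9 CPM on the CD and 21.8 and 31.9 CPM on the HFD, and that of the eosinophil and mast cell genes 81.8 and 112 CPM on the CD and 63.9 and 14.9 CPM on the HFD. The adipocyte sum was 933 and 1766 CPM on the CD and 834 and 1134 CPM on the HFD, the stromal sum 551 and 402 CPM on the CD and 374 and 429 CPM on the HFD and the red cell sum 628 and 14.6 CPM on the CD and 431 and 641 CPM on the HFD. The dendritic cell sum was 1620 and 2160 CPM on the CD and 1195 and 1453 CPM on the HFD. Platelet genes summed to 967 and 874 CPM (CD) and 698 and 742 CPM (HFD). The B cell sum was 4.63 and 57.2 CPM (CD) and 13.8 and 19.3 CPM (HFD). NK cell genes summed to 5.51 and 6.10 CPM (CD) and 9.50 and 14.2 CPM (HFD). Mesothelial genes summed to 5.07 and 20.9 CPM (CD) and 7.52 and 13.3 CPM (HFD). The part of these RNAs in the diet differences was not tested.

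The diet difference in pop2 was then compared with the mean of those in pop1, pop3 and pop4 in the same fit. It was greater for 24 genes (0.142% of those tested) and smaller, or more negative, for 209 (1.23%). In the other populations alone the diet calls numbered 74 in pop1 (0.436%), 16 in pop3 (0.0943%) and 6 in pop4 (0.0354%), in either direction. Dpm2 gave the lowest p: its log2 difference between diets was -5.68 in pop2, -0.57 in pop1, -0.52 in pop3 and -0.04 in pop4, and pop2 departed from the mean of the others by -5.30 (adjusted p = 5.64e-06). Fdx1l departed by -7.08, Apoa1bp by -5.34, Chordc1 by -2.91, Ctbs by -5.77 and Med31 by -4.32, all at an adjusted p of 0.000586. In pop1, pop3 and pop4 these 5 genes lay between -1.14 and 2.86. Upward, Plagl2 departed by 4.01 (adjusted p = 0.00349) and Rgs14 by 3.49. Sidt2, a lysosomal protein gene, was at 84.2 and 86.98 CPM on the CD and 295 and 302 CPM on the HFD in pop2 (1.80, SE 0.33) and departed by 1.81. Sertad2, a transcriptional coregulator gene, was at 6.83 and 15.9 CPM (CD) and 107 and 109 CPM (HFD) and departed by 4.07, and D17Wsu92e by 3.14. Tmem38b, a channel of the endoplasmic reticulum, was at 7.05 and 0.349 CPM (CD) and 16.03 and 20.00 CPM (HFD) in pop2, where it was not called (adjusted p = 0.076); it departed by 4.94, with a diet difference of -5.14 in pop1. Without CD library 7 the departures of Rgs14, Sidt2 and Sertad2 did not pass, and without CD library 8 those of Sidt2 and D17Wsu92e. The number of departures was 10 upward without CD library 7, 135 downward without CD library 8, and 70 and 423 without HFD library 2, and 41 upward without HFD library 2 of pop1.

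Of the kept genes, 4 of 4 higher and 102 of 147 lower also differed from the other populations. The departure contains the same pop2 difference by which these genes were kept, so this overlap is in part fixed by their selection. With the background sum as a covariate, however, 0 genes departed upward and 10 downward (574 and 866 at an unadjusted p under 0.05, edgeR). Dpm2, Fdx1l, Apoa1bp, Chordc1, Ctbs and Med31 were among the 10, and none of the 6 named upward was called. Background was higher in the HFD libraries of pop2 and lower in those of the other populations, for example 638 and 604 CPM in pop1 on the CD and 243 and 265 CPM on the HFD. Among genes of the lists, Cd68 departed by -1.45, Cd86 by -1.78 and Casp1 by -1.67 (the last 2 not past the test with GC offsets, adjusted p = 0.077 and 0.0938), whereas Timd4, Vsig4 and Slc40a1 did not pass (adjusted p = 0.645, 0.487 and 0.599). The diet differences of Cd68, Cd86 and Casp1 were -0.82, -0.15 and -1.23 in pop1, -0.80, -1.31 and -1.16 in pop3, and -0.12, 0.11 and -0.31 in pop4.

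**Figure D5:**
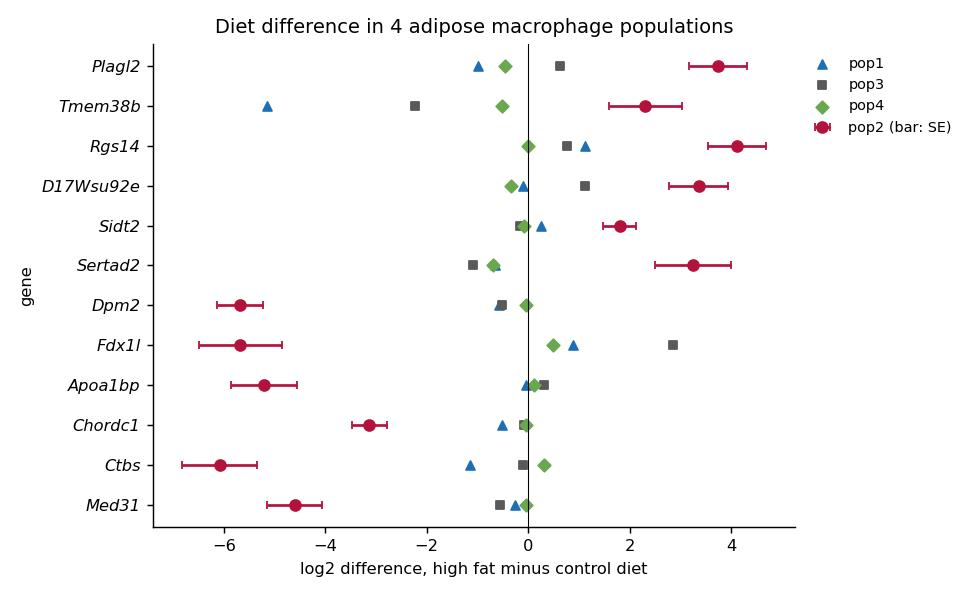
Log2 difference between diets (high fat minus control) in pop2 (red circles, bars are the standard error) and in pop1 (triangles), pop3 (squares) and pop4 (diamonds) for 12 genes, the 6 in each direction with the lowest p for the departure among those with at least 10 CPM in both libraries of a pop2 group. The genes were chosen by this departure, which is 1.81 to 7.08 in size from the mean of the 3 others. The largest, that of Fdx1l, depends on edgeR's prior count, since its high fat diet values in pop2 were close to the 3-count floor. In Tmem38b pop1, at -5.14, is itself far from pop3 (-2.23) and pop4 (-0.52), with pop2 at 2.31.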

How the data were processed

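RNA was measured by sequencing of libraries made from amplified cDNA with 8 PCR cycles (per the labels' protocols). The deposited values are raw read counts per RefSeq gene model made by the authors, not normalized. STAR 2.5.3a, HOMER and mm10 are named in the submitters' processing notes, and strand and duplicate handling are not given in the sources used here. Total counts run from 3.75 to 9.34 M per library. Of 24537 models 16961 passed edgeR's filterByExpr and were fitted with TMM factors and glmQLFTest (R 4.3.3, edgeR 4.0.16, limma 3.58.1, DESeq2 1.42.0), with 10 groups and 15 residual degrees of freedom. The fit was also run on simulated data, the outcome of which is not given here. GC offsets came from a loess curve (span 0.5) of each library's log2 level against transcript GC content, fitted over genes with a mean of at least 10 CPM. Background is the sum over 1456 olfactory and vomeronasal receptor models. The alternatives are given in the closing section.

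Named were, in each direction, the 12 called genes with the widest gap between the nearest libraries of the diets (at least 10 CPM in both libraries of the higher diet, no receptor, non-coding or multicopy models), the called members of each of the 43 lists and their widely separated members, the sort markers, and the 6 genes in each direction that departed most from the other populations by p. Of the called genes that met the conditions on libraries and level, 3 higher and 5 lower were left out as such models. A few genes that the rule names are not reported here. Members and lists were chosen with earlier results of these data known. Values near 0 CPM rest on few reads, and fitted differences there depend on edgeR's prior count. Reads of genes with near-identical copies and of overlapping genes may be shared.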

Additional observations from a re-analysis of the deposited data

Results flagged for a closer look

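The diet difference in pop2 departed from the mean of those in pop1, pop3 and pop4 (edgeR, adjusted p under 0.05) upward for 24 genes and downward for 209. Each value below is a departure on the log2 scale, tested in the fit of all 25 libraries.

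Downward departures were -5.30 for Dpm2, -5.77 for Ctbs and -4.32 for Med31. Further downward departures were -7.08 (Fdx1l), -5.34 (Apoa1bp), -2.70 (Uqcrc1), -7.71 (Lipt2) and -5.09 (Cbr4). The cochaperone gene Chordc1 departed by -2.91, the integrase-like gene Gin1 by -7.53, the zinc finger gene Zfp97 by -7.63, caveolin-1 (Cav1) by -6.39 and the iron importer Slc11a2 by -4.72. Lipt2, Gin1 and Zfp97 were around the 3-count floor on the HFD, as were Usp18 on the HFD and Ccrl2 on the CD, so their fitted departures depend on edgeR's prior count and give no fold. Fdx1l (0.396 and 1.63 CPM) and Cbr4 were close to that floor on the HFD, and the same limit holds for them.

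Among genes of macrophage function, Cd68 departed by -1.45, Cd86 by -1.78, Casp1 by -1.67, Psmb8 by -1.86, Fn1 by -2.23, Acly by -1.65, Hif1a by -2.11 and Usp18 by -6.998. Some of them also fell on the HFD in other populations. The diet differences of these genes, in the same order, were -0.82, -0.15, -1.23, 0.06, -1.83, -0.08, 0.12 and 1.01 in pop1. In pop3 they were -0.80, -1.31, -1.16, 0.61, 0.29, -0.29, 0.31 and 0.82. Usp18 rested on 1 CD library and Ccrl2, which departed by 7.45, on 1 HFD library.

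Upward departures were 4.01 for Plagl2, 3.49 for Rgs14, 3.14 for D17Wsu92e, 4.07 for Sertad2, 4.22 for Nrf1, 3.93 for Fbxl6, 1.81 for Sidt2 and 4.94 for Tmem38b. With the background covariate 0 upward and 10 downward departures passed. With GC offsets those of Cd86, Casp1, Hif1a, Cbr4 and Fbxl6 did not pass (adjusted p = 0.077, 0.0938, 0.077, 0.0682 and 0.0979).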

How the results depend on the processing

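Of the 151 kept calls, all held in the 3 other scalings and in DESeq2, 3 higher and 49 lower in limma-voom, and 0 and 14 with the 8 Tim4+ libraries. Totals of calls (128 higher, 583 lower) moved to 197 and 387 with library totals, 65 higher without a filter on low counts, 312 higher with at least 50 counts in 2 pop2 libraries, 20 and 229 with the 16 adipose libraries, 3 and 22 with the 8 Tim4+ libraries, 0 and 0 with the 4 pop2 libraries (762 and 934 at an unadjusted p under 0.05), 880 and 1023 in DESeq2's Wald test, 19 and 98 in limma-voom, and 78 higher with GC offsets. Leaving out a pop2 library gave 41 to 154 higher and 361 to 704 lower calls, with the limits from CD library 7 and HFD libraries 2 and 3. With at least 30 CPM, 288 genes were separated upward by 2 times (450 with 10 CPM).

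Departures from the other populations (24 and 209) moved to 0 and 10 with the background covariate. Leaving out an adipose library gave 10 to 70 and 135 to 423, the lowest without pop2 CD libraries 7 and 8 and the highest without pop2 HFD library 2. With the replicate number as a block, in a fit of the adipose libraries alone, 0 genes departed upward and 6 downward. With block and GC offsets, also without the monocyte libraries, 0 and 3 did. At an unadjusted p under 0.05 (edgeR) the counts were 815 and 1065, and 768 and 955. Departures were not fitted in the adipose libraries without the block, so the part of the block in these lower counts was not tested. Libraries of 1 number did not deviate together across populations (correlations -0.02 to 0.10 over 7048 genes), and the numbers were not taken as pairs. Differences between single libraries may be technical, so low correlations cannot show whether libraries of 1 number share an animal. No paired analysis was possible because, for diet, the CD libraries are numbered 7 and 8 and the HFD libraries 2 and 3.

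Sort markers with differences near 0 changed sign. Without a filter Cd74 was at -0.017, Itgax at -0.075, Ly6c2 at -0.11 and Ptprc at -0.031, and with the adipose libraries at -0.000569, -0.065, -0.11 and -0.016. The background covariate gave -0.11 for H2-Eb1 and -0.29 for Itgax. GC offsets gave -0.49 for Cd74, -0.45 for H2-Ab1, -0.085 for H2-Eb1, -0.15 for Itgax and -0.049 for Ly6c2, and Ptprc, at 0.11 (adjusted p = 0.788) without them, was called higher at 0.68 (adjusted p = 0.0241). Without a pop2 library, Cd74 ranged from -0.099 to 0.21, H2-Ab1 from -0.078 to 0.29, H2-Eb1 from -0.11 to 0.16, Itgax from -0.83 to 1.93, Itgam from -0.88 to 0.059, Ly6c2 from -0.33 to 0.16 and Ptprc from -0.047 to 0.18. The cause was not tested.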
